A study of Homo sapiens with 6 samples.

Results

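The genes described here are the core of the cell cycle engine, 39 genes that encode cyclins, cyclin-dependent kinases (CDKs), CDK inhibitors, the RB family, the E2F and DP transcription factors, the CDC25 phosphatases, WEE1 and a pair of ubiquitin ligase parts. They were chosen by name, with earlier results of these data known. They matched 40 of the 57820 rows of the gene tables, since RBL1 appears on 2 rows. The second RBL1 row (chr20:35724188-35725581, plus strand in GRCh37) held 3 to 10 counts per sample and was not tested. Of the 39 genes, 36 had enough counts to be tested among 19599 genes. Bulk RNA-seq of AID-DIvA cells without any treatment was compared between 3 WT samples and 3 samples with an ARID1A knock-out (ARID1A-KO), numbered 3 to 5 in each genotype. AID-DIvA cells derive from the human U2OS osteosarcoma line and carry an inducible AsiSI endonuclease that was not induced here, in either genotype. ARID1A, a DNA-binding subunit of the SWI/SNF chromatin remodelling complex, was knocked out by CRISPR/Cas9. The clone behind the ARID1A-KO samples is not given in the sources used here, and all 3 may come from a single one. The study describes the replicates as biological, from independent experiments, and p-values measure the spread between these samples.

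Each sample held between 54512105 and 84088708 counts on the reverse strand. ARID1A itself (ENSG00000117713.13, chr1:27022524-27108595) stood at 173 ± 6.67 CPM (counts per 1000000 counts, SD, n = 3) in WT cells and 25.9 ± 1.38 CPM in ARID1A-KO cells, with a log2 fold change of -2.74 (adjusted p = 9.66e-08, edgeR's quasi-likelihood test). Among markers of the osteosarcoma line, SPARC (757 and 409.7 CPM in WT and ARID1A-KO cells), COL1A1 (447 and 322) and RUNX2 (14.96 and 14.58) were present. ALPL fell from 9.68 to 1.76 CPM (log2 fold change -2.45, adjusted p = 0.000148, edgeR), and COL1A2 was nearly absent (0.230 and 0.160 CPM). The osteoblast markers SP7, IBSP and BGLAP were at or below 0.131 CPM. The 8 markers summed to between 850.5 and 945.1 TPM in WT and between 518.8 and 554.6 TPM in ARID1A-KO samples, and 3 of the 5 tested fell. The 4 epithelial markers summed to 861.0 to 980.9 TPM in WT and 604.7 to 661.8 TPM in ARID1A-KO samples, nearly all of it from KRT8 and KRT18, and 3 of the 4 fell while EPCAM rose. The 4 leukocyte markers summed to at most 2.32 TPM in any sample. Whether the level of these markers has a part in the values below was not tested.

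In dividing cells, D-type cyclins with CDK4 and CDK6, and then E-type cyclins with CDK2, phosphorylate the RB family of pocket proteins, which otherwise hold E2F transcription factors in check. Released E2F proteins, bound to DNA together with a DP partner, switch on genes of DNA replication, including several cyclins and E2F genes themselves. Cyclin A and cyclin B with CDK1 then drive mitosis, while INK4 and CIP/KIP inhibitors and WEE1 restrain the cycle. Ubiquitin ligases act by targeting proteins for degradation. Of the parts described here, SKP2 targets the inhibitor p27, and FBXO5 encodes an inhibitor of the ligase APC/C.

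Loss of ARID1A went along with lower mRNA of much of this machinery and higher mRNA of 3 of its genes. At an adjusted p under 0.05 in edgeR's quasi-likelihood test, 3 of the 36 tested genes rose (E2F1, E2F4 and WEE1) and 15 fell. Over all 19599 genes tested, 36.2% were called, 17.8% higher and 18.4% lower. The 36 genes were chosen with earlier results of these data known, so this contrast only describes them. The genes that fell were CDK6, TFDP1, TFDP2, CCNE2, CDKN2D, SKP2, CDKN1B, RB1, CCND1, E2F7, CCNA2, RBL2, FBXO5, RBL1 and CDK2. The median log2 fold change was -0.15 over the 36 genes and 0.01 over all genes tested, with 25 of the 36 below 0. In bulk samples, fewer cells in a cell cycle phase and less mRNA per cell cannot be told apart. None of the 36 changed by 2-fold, and the range ran from -0.75 for CDK6 to 0.60 for E2F1. Of the called genes, 3 rose and 10 fell by at least 0.3 on the log2 scale, a size that 15.3% of all genes tested passed upwards and 15.7% downwards. The WT and ARID1A-KO samples did not overlap in CPM for 22 of the 36 genes, against 49.5% of all genes tested.

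**Figure D1:**
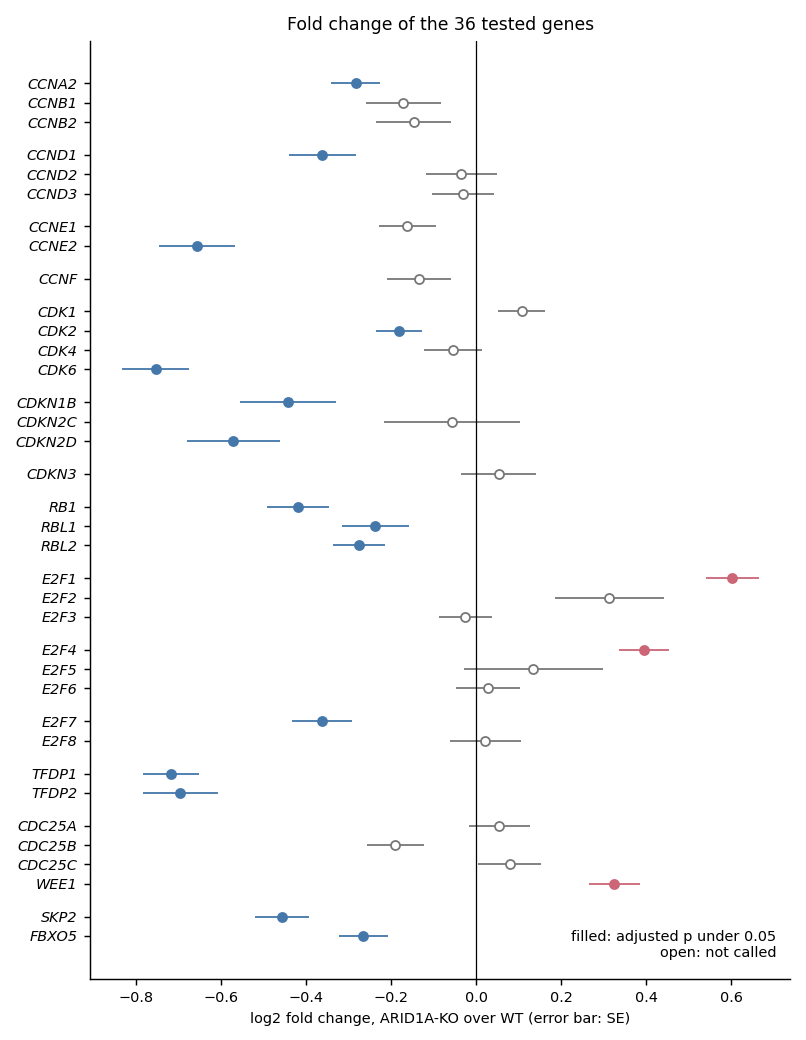
Log2 fold change of ARID1A-KO over WT for the 36 tested genes, grouped by family, with the standard error (SE) from edgeR's quasi-likelihood fit on 3 samples per genotype. Filled points passed an adjusted p of 0.05. The 3 filled points on the right are E2F1, E2F4 and WEE1, and all pocket protein and DP genes lie on the left.

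The levels of the genes spread widely. In deposited TPM (transcripts per 1000000, scaled by length), CCNB1, which encodes cyclin B1, was the highest in both genotypes, with means of 961 (WT) and 864 (ARID1A-KO). CDK4 (373 and 364 TPM) and CCNB2 (353 and 322 TPM) followed, and their samples overlapped in each genotype. E2F5, a repressor-type E2F, was the lowest tested gene at 3.59 and 3.99 TPM. Over the 6 samples it held 26520 forward-strand counts against 2065 on the reverse strand, which was the strand used. Whether reads of the opposite strand have a part in the level or fold change of E2F5 was not tested. TFDP1 ranked 4 in WT and 6 in ARID1A-KO cells. E2F1 moved from rank 19 to rank 13, and CDK6 from rank 18 to rank 23.

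**Figure D2:**
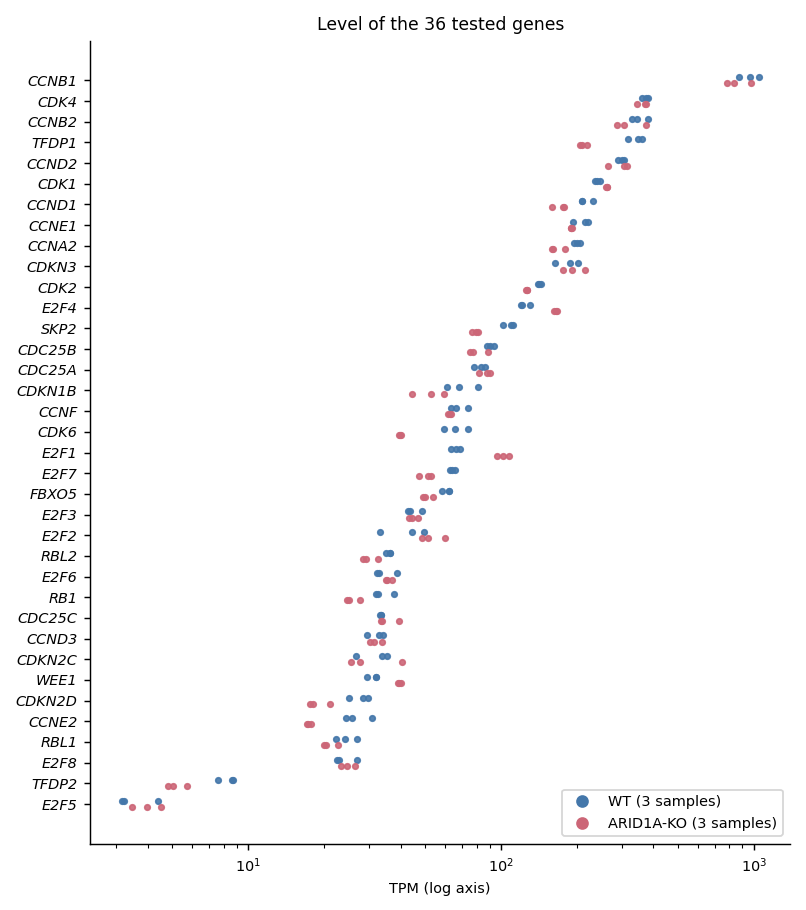
Deposited TPM of the 36 tested genes in each of the 6 samples, on a log axis, ordered by the WT mean. The points of both genotypes lie apart for E2F1, TFDP1 and CDK6, and mix for genes such as CCNB1 and CCND2.

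Among the G1 cyclins, 1 gene of the D-type and 1 of the E-type fell, and their relatives did not pass the test. In the following, values are CPM of replicates 3, 4 and 5 in this order. CCND1 (chr11:69455855-69469242), which encodes cyclin D1, stood at 226, 255 and 233 in WT and 194, 195 and 167 in ARID1A-KO cells. Its WT samples were all above its ARID1A-KO samples, and it fell by 0.36 on the log2 scale (SE 0.08, adjusted p = 0.00622, edgeR). CCND2 (chr12:4382938-4414516), which encodes cyclin D2, stood at 490.4, 493 and 477 in WT and 515, 496 and 415 in ARID1A-KO cells. Here the genotypes overlapped, with replicate 5 of ARID1A-KO the lowest of all, and the log2 fold change was -0.03 (adjusted p = 0.780). CCND3 (cyclin D3) had a log2 fold change of -0.03 (adjusted p = 0.773). In TPM, cyclin D1 made up 39.5% ± 1.48 (SD, n = 3) of the D-type cyclin mRNA in WT and 34.3% ± 0.503 in ARID1A-KO cells, and the samples did not overlap. The share of cyclin D2 went from 54.6% ± 1.12 to 59.3% ± 1.21, also without overlap. Summed over the 3 D-type cyclins, the level was 548.0 ± 15.2 TPM in WT and 497.1 ± 34.5 TPM in ARID1A-KO cells, the 3 ARID1A-KO samples all being lower.

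CCNE2, which encodes cyclin E2, stood at 30.4, 25.9 and 24.8 CPM in WT and 17.4, 17.0 and 17.0 in ARID1A-KO cells. The ARID1A-KO samples were nearly equal and below all WT samples, a fall of 0.66 on the log2 scale (SE 0.09, adjusted p = 0.000485, edgeR). CCNE1 (chr19:30302805-30315215), which encodes the more abundant cyclin E1, stood at 123, 113 and 131 in WT and 111, 109.6 and 108 in ARID1A-KO cells. Its genotypes did not overlap either, but WT replicate 4 came close to the ARID1A-KO samples. With a log2 fold change of -0.16, it missed the threshold (adjusted p = 0.0896, edgeR). Of the 6 fits without 1 sample, it passed in 1, without WT replicate 4 (log2 fold change -0.22, adjusted p = 0.0311). In the others, the fall was as small as -0.11, with an adjusted p up to 0.244. The ratio of CCNE1 to CCNE2 in TPM was 7.82 ± 1.09 in WT and 10.9 ± 0.104 in ARID1A-KO cells.

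CDK6 had the largest change among the 4 kinases. CDK6 (ENSG00000105810.5, chr7:92234235-92465908), a partner of D-type cyclins, stood at 179, 208 and 169 CPM in WT and 111, 111 and 108 in ARID1A-KO cells. The WT samples spread more than the ARID1A-KO samples, and every ARID1A-KO sample was far below them, a fall of 0.75 on the log2 scale (SE 0.08, adjusted p = 0.000115, edgeR). The 51 other tested genes within 5 Mb of CDK6 had a median log2 fold change of 0.00. CDK4, which shares this role, did not pass the test (log2 fold change -0.05, adjusted p = 0.581). Thus CDK6 made up 15.1% ± 1.28 of the summed CDK4 and CDK6 TPM in WT cells against 9.88% ± 0.472 in ARID1A-KO cells, while the sum was 439.7 ± 15.6 and 403.5 ± 15.3 TPM. CDK2, the partner of cyclins E and A, fell by 0.18 (adjusted p = 0.0270), from 125 ± 1.11 to 110.4 ± 2.95 CPM. This call was lost when any 1 of the 6 samples was left out (adjusted p up to 0.0922, without ARID1A-KO replicate 4). CDK1, the mitotic kinase, had a log2 fold change of 0.11 (adjusted p = 0.164). Its 24 neighbours within 5 Mb had a median of 0.28.

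**Figure D3:**
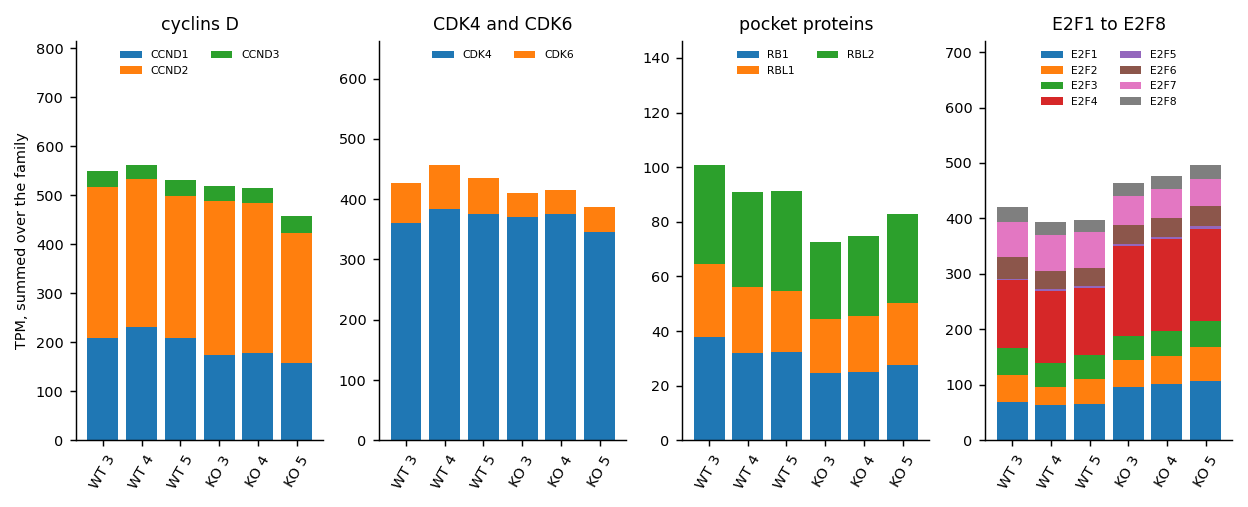
Summed TPM of the D-type cyclins, CDK4 and CDK6, the pocket proteins and E2F1 to E2F8 in each sample (WT and ARID1A-KO replicates 3 to 5), each bar divided by gene. The first 3 families are lower and the E2F family is higher in all 3 ARID1A-KO samples than in every WT sample.

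Of the 3 CDK inhibitors tested, 2 fell. CDKN1B (chr12:12867992-12875305), which encodes p27, an inhibitor of CDK2 complexes, stood at 50.8, 39.2 and 44.4 CPM in WT and 28.7, 33.6 and 36.5 in ARID1A-KO cells. The groups did not overlap, although ARID1A-KO replicate 5 came within reach of WT replicate 4. It fell by 0.44 on the log2 scale (SE 0.11, adjusted p = 0.0133, edgeR), and its 94 neighbours had a median of -0.16. CDKN2D (chr19:10677138-10679735), the INK4 gene of p19, stood at 9.98, 8.59 and 9.88 in WT and 6.07, 6.17 and 6.90 in ARID1A-KO cells. All ARID1A-KO samples were lower, by 0.57 on the log2 scale (SE 0.11, adjusted p = 0.00313), beside a median of -0.27 for its 249 neighbours. When the neighbours' median was subtracted as an offset, neither passed the test (CDKN1B -0.29, adjusted p = 0.0799 and CDKN2D -0.30, adjusted p = 0.0633). CDKN2C (p18) ranged from 20.3 to 26.3 CPM in WT and from 19.4 to 29.4 CPM in ARID1A-KO cells, with a log2 fold change of -0.06 (adjusted p = 0.815). CDKN3, a phosphatase that acts on CDKs, had a log2 fold change of 0.05 (adjusted p = 0.673).

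CDKN2A and CDKN2B, the INK4 genes of p16 and p15 on chromosome 9p21, were not tested. CDKN2A (chr9:21967751-21995300) had 0 counts in all 6 samples, which allows up to 0.0153 CPM in WT and 0.0142 CPM in ARID1A-KO cells (3 counts over the summed libraries, counting error only). CDKN2B (chr9:22002902-22009362) had 0 counts in the WT samples and 2, 0 and 4 in the ARID1A-KO samples. CDKN2B-AS1 (chr9:21994777-22121096), whose span includes that of CDKN2B, had 5, 1 and 3 counts in WT and 0, 0 and 2 in ARID1A-KO samples. The genes on either side of this stretch were expressed, MTAP with 1677 to 2880 counts and DMRTA1 with 71 to 128 counts per sample. These genes are given because they lie in or flank this locus, a choice made after the values were seen. CCNA1 (chr13:37005967-37017019), the cyclin A gene best known from the germ line, was also not tested, with 1, 0 and 0 counts in WT and 9, 16 and 14 counts in ARID1A-KO samples. All ARID1A-KO samples were above all WT samples, a ratio of 36.2 between the depth-scaled sums with an exact 95% interval from 6.13 to 1466 (counting error only). Its level was 0.375 TPM in ARID1A-KO cells, against 166 TPM for CCNA2.

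All 3 pocket proteins, the inhibitors of E2F, were lower. RB1 (chr13:48877887-49056122), the retinoblastoma gene, stood at 51.9, 45.2 and 46.2 CPM in WT and 34.7, 35.1 and 37.4 in ARID1A-KO cells. The genotypes were well apart, and RB1 fell by 0.42 on the log2 scale (SE 0.07, adjusted p = 0.00205, edgeR). RBL2 (chr16:53467889-53525561), which encodes p130 of quiescent cells, stood at 60.9, 60.1 and 63.3 in WT and 48.9, 49.97 and 53.4 in ARID1A-KO cells. The genotypes did not overlap, and it fell by 0.28 (SE 0.06, adjusted p = 0.00710), whereas its 74 neighbours had a median of 0.33. RBL1 (chr20:35624752-35724398), which encodes p107, stood at 35.9, 32.7 and 30.6 in WT and 27.1, 27.4 and 29.5 in ARID1A-KO cells. WT replicate 5 and ARID1A-KO replicate 5 lay close to each other, and the fall of 0.24 (SE 0.08, adjusted p = 0.0428) was near the threshold. It was lost in 4 of the 6 fits without 1 sample, with an adjusted p up to 0.143 without ARID1A-KO replicate 4. The pocket protein mRNAs summed to 94.4 ± 5.62 TPM in WT and 76.8 ± 5.37 TPM in ARID1A-KO cells.

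Among the E2F genes, E2F1 and E2F4 rose, E2F7 fell, and the other 5 did not pass the test. E2F1 (ENSG00000101412.9, chr20:32263489-32274210), an activator of S phase genes, stood at 38.6, 36.2 and 38.2 CPM in WT and 55.1, 57.5 and 59.0 in ARID1A-KO cells. Every ARID1A-KO sample was above every WT sample, a rise of 0.60 on the log2 scale (SE 0.06, adjusted p = 9.63e-05, edgeR), beside a median of 0.22 for its 110 neighbours. E2F2, a further activator, had a log2 fold change of 0.31 with a large spread (SE 0.13, adjusted p = 0.0864), its lowest value being the 41.3 CPM of WT replicate 4. E2F3, the remaining activator, had a log2 fold change of -0.03 (adjusted p = 0.790). The activators summed to 153.6 ± 13.8 TPM in WT and 199.8 ± 13.7 TPM in ARID1A-KO cells, with E2F1 making up 43.2% ± 2.04 and 50.9% ± 0.677 of the sum. The ratio of E2F1 to RB1 in TPM was 1.95 ± 0.105 in WT and 3.95 ± 0.0795 in ARID1A-KO cells.

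E2F4 (chr16:67226072-67232821), a partner of p107 and p130 in repression, stood at 97.2, 106 and 99.0 CPM in WT and 133, 134 and 131 in ARID1A-KO cells. The genotypes were far apart and E2F4 rose by 0.40 (SE 0.06, adjusted p = 0.000802, edgeR). The 137 genes around it on chromosome 16 had a median of 0.55, and 65.7% of them were called higher. With that median as an offset, its log2 fold change became -0.16 (adjusted p = 0.0687). E2F7 (chr12:77415027-77459360), an atypical E2F that represses E2F targets without a DP partner, stood at 88.8, 94.5 and 93.2 in WT and 76.1, 73.7 and 65.4 in ARID1A-KO cells. All ARID1A-KO samples were lower, by 0.36 on the log2 scale (SE 0.07, adjusted p = 0.00353). Its relative E2F8 had a log2 fold change of 0.02 (adjusted p = 0.863), and the repressors E2F5 and E2F6 had 0.13 and 0.03 (adjusted p = 0.561 and 0.804). In shares of the TPM summed over E2F1 to E2F8, E2F1 went from 16.4% ± 0.285 to 21.2% ± 0.497, E2F4 from 30.7% ± 2.12 to 34.4% ± 0.716 and E2F7 from 15.9% ± 0.857 to 10.6% ± 0.917.

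Both DP partners fell. TFDP1 (ENSG00000198176.8, chr13:114239013-114295785), which encodes DP1, stood at 293, 274 and 314 CPM in WT and 180.0, 175 and 180.1 in ARID1A-KO cells. The ARID1A-KO samples were tightly grouped below all WT samples, a fall of 0.72 on the log2 scale (SE 0.07, adjusted p = 5.10e-05, edgeR). Its 35 neighbours near the end of chromosome 13 had a median of -0.34, and with this as an offset TFDP1 stayed lower (-0.38, adjusted p = 0.00247). TFDP2 (chr3:141663277-141868386), which encodes DP2, stood at 23.1, 20.6 and 23.6 in WT and 13.1, 13.6 and 14.8 in ARID1A-KO cells. It too was lower in every ARID1A-KO sample, by 0.70 (SE 0.09, adjusted p = 0.000310). Of its 40 neighbours on chromosome 3, 70.0% were called lower, with a median of -0.48, and with the offset the fold change was -0.21 (adjusted p = 0.0899). TFDP1 made up 97.6% of the DP mRNA in both genotypes, and the sum went from 350.7 ± 22.6 TPM in WT to 215.9 ± 7.47 TPM in ARID1A-KO cells.

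Because E2F genes and their regulators are known to be E2F targets themselves, the RefSeq promoter windows (GRCh38.p14, 250 bases before to 50 after a transcript's start) were searched for E2F-type letters. A match was TTTCCCGC, TTTCGCGC, TTTGCCGC or TTTGGCGC on either strand. Of the 39 genes, 32 had a window, and WEE1, CCNE2, E2F5, CDK2, CCND1, E2F8 and CCND2 had none. A match stood in the windows of 7 genes, in 8 of the 50 windows of these 32 genes (16%), against 3.31% of all 35116 windows of the same length. Of these 7 genes, E2F1 rose, RBL1 and TFDP1 fell, and E2F2, E2F3, CDC25A and CDK1 did not pass the test. For the 3 called genes 1 window with a match is printed, together with those of E2F2 and CDC25A, which carry the same letters without a call. They run 5′ to 3′ along the gene, with the E2F-type letters in capitals, and a match on the opposite strand appears as its reverse complement.
E2F1 (chr20:33686336-33686635, minus strand): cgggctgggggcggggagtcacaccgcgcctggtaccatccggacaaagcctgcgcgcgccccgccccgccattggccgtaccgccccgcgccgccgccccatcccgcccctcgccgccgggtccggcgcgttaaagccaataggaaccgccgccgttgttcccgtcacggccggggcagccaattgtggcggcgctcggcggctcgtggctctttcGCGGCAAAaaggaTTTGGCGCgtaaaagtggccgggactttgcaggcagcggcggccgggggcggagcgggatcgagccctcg
RBL1 (chr20:37095948-37096247, minus strand): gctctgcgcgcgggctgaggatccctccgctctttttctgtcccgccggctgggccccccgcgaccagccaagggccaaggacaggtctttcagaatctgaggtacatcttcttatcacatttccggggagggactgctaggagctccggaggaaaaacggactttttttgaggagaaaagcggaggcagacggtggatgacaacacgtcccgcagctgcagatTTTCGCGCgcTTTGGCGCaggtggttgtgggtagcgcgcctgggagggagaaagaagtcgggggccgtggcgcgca
TFDP1 (chr13:113584503-113584802, plus strand): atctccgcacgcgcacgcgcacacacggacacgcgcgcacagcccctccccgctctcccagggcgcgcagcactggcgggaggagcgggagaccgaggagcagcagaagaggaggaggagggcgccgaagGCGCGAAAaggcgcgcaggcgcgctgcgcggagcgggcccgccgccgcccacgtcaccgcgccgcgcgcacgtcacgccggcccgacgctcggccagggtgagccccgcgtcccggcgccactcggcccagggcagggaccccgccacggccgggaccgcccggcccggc
E2F2 (chr1:23531184-23531483, minus strand): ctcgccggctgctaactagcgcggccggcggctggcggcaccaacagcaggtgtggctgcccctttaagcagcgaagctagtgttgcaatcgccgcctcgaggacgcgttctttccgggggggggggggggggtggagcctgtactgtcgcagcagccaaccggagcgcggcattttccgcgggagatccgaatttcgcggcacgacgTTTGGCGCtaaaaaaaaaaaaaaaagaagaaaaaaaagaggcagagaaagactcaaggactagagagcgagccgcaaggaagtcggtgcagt
CDC25A (chr3:48188368-48188667, minus strand): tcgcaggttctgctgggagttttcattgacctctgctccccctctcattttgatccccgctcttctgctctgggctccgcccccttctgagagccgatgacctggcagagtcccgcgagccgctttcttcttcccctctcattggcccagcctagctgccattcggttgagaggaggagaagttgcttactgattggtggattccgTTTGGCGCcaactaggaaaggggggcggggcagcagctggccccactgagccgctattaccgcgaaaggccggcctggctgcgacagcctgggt
E2F1 and RBL1 each held 2 matches in the last 33 bases before the start, at positions -33 and -20 in E2F1 and -26 and -16 in RBL1 (first base of the match). The single match stood at -120 in TFDP1, -42 in E2F2 and -44 in CDC25A. E2F1 rose, while the fall of RBL1 was near the threshold and was lost in 4 of the 6 fits without 1 sample. Whether the letters have a part in these changes was not tested. A match of letters is a description of the sequence and was not tested for binding.

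The same windows were searched for the letters of the CHR element, TTTGAA or TTCGAA, known from promoters of mitotic genes, and for CCAAT, again on either strand. CHR letters stood in 26% of the 50 windows, against 16.4% of all windows, and CCAAT in 46%, against 34.6%. Of the 10 genes with CHR letters, RBL2, TFDP2 and FBXO5 fell, and CCNB2, CCNF, CDK1, CDKN3, E2F3, CDC25B and CDC25C did not pass the test.

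Of the cyclins that peak towards mitosis, 1 fell. CCNA2, which encodes cyclin A2 of S phase and mitosis, fell by 0.28 on the log2 scale (SE 0.06, adjusted p = 0.00458, edgeR), from 127 ± 2.63 to 104 ± 4.35 CPM, and its samples did not overlap. CCNB1 had a log2 fold change of -0.17 (adjusted p = 0.159), CCNB2 -0.15 (adjusted p = 0.225) and CCNF, a cyclin that serves as a ubiquitin ligase part, -0.13 (adjusted p = 0.193). Of the ARID1A-KO samples, replicate 5 was the highest for CCNB1 and CCNB2. CCNB1 was at 488, 454 and 547 CPM in the ARID1A-KO samples, and replicate 5 lay inside the WT range of 510.4 to 596.4. Without that sample, CCNB1 (-0.25, adjusted p = 0.0430), CCNB2 (-0.24, adjusted p = 0.0328) and CDC25B (-0.25, adjusted p = 0.0192) were called lower. Each was called in only this 1 of the 6 fits without 1 sample. Across the others, the falls were as small as -0.11 for CCNB1, -0.08 for CCNB2 and -0.15 for CDC25B. Their adjusted p reached 0.461, 0.596 and 0.185 (edgeR). Of the 36 tested genes, ARID1A-KO replicate 5 was the highest of its genotype for 22 and WT replicate 4 the lowest of its genotype for 19. Of 51 further G2/M genes, these numbers were 40 and 32, and over all 19599 genes tested they were 8122 and 6770. The fractions of cells in each phase were not measured, and their part in these values was not tested.

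**Figure D4:**
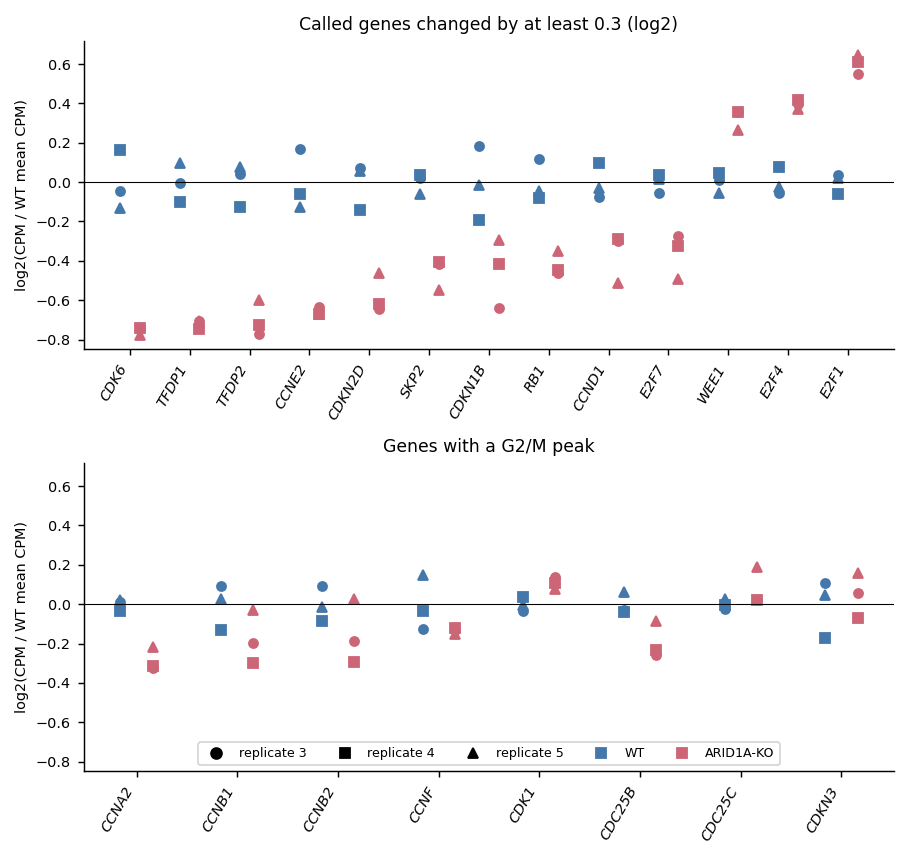
CPM of each sample relative to the WT mean on a log2 scale, for the 13 called genes changed by at least 0.3 and for 8 genes with a known peak in G2/M (symbols mark replicates 3, 4 and 5, colours the genotypes). In the upper panel the genotypes are apart for every gene. In the lower panel ARID1A-KO replicate 5 lies highest of its genotype for 6 of the 8 genes.

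WEE1 (chr11:9595228-9615004), the kinase that holds CDK1 inactive, stood at 66.1, 67.6 and 63.0 CPM in WT and 83.9, 84.0 and 78.7 in ARID1A-KO cells. All ARID1A-KO samples were higher, and WEE1 rose by 0.33 (SE 0.06, adjusted p = 0.00262, edgeR), beside a median of 0.03 for its 96 neighbours. The CDC25 phosphatases, which remove the mark that WEE1 sets, did not pass the test, with log2 fold changes of 0.06 for CDC25A, -0.19 for CDC25B (adjusted p = 0.0526) and 0.08 for CDC25C. In TPM, the ratio of CDC25A to WEE1 was 2.65 ± 0.0442 in WT and 2.19 ± 0.0886 in ARID1A-KO cells, and that of CDC25B to WEE1 2.91 ± 0.220 and 2.03 ± 0.215. SKP2 (chr5:36152091-36184421), the ubiquitin ligase part that targets p27 for degradation, stood at 95.2, 96.3 and 90.1 CPM in WT and 70.2, 70.8 and 64.2 in ARID1A-KO cells. The genotypes were well apart, a fall of 0.46 (SE 0.06, adjusted p = 0.000541). FBXO5, which encodes the APC/C inhibitor EMI1, fell by 0.27 (adjusted p = 0.00658), from 52.8 ± 1.38 to 43.9 ± 0.957 CPM, and with the offset on its neighbours it did not pass (-0.13, adjusted p = 0.115).

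Several of the genes lay among neighbours whose own fold changes were not centred on 0. For 4 of the 36 genes (E2F4, TFDP1, TFDP2 and RBL2), the median of the neighbours within 5 Mb was more than 0.3 from 0 on the log2 scale. Of the 18 called genes, 13 had the sign of their neighbours' median. With this median as an offset, 13 of the 18 calls stayed, E2F4, TFDP2, CDKN1B, CDKN2D and FBXO5 did not pass, and CCNF, CDC25B and CDK1 (-0.17, adjusted p = 0.0430) were called lower. CDK1 was called in the opposite direction with an offset on GC content (0.19, adjusted p = 0.0290). E2F1 (0.38, adjusted p = 0.00161) and WEE1 (0.30) stayed higher. Copy number was not measured here, and its part in these values was not tested.

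**Figure D5:**
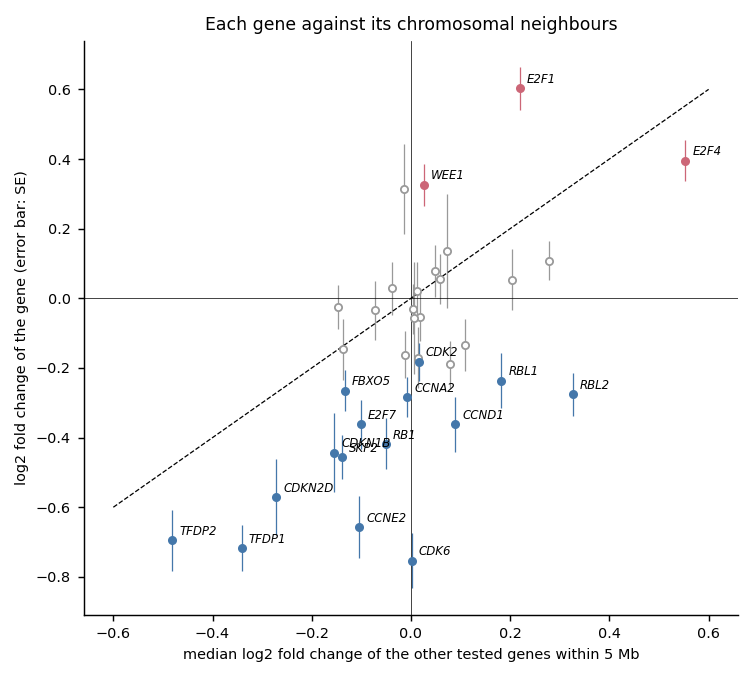
Log2 fold change of each of the 36 tested genes (error bar, SE) against the median log2 fold change of the other tested genes within 5 Mb. The dashed line marks equal values, called genes are filled and named. TFDP2, TFDP1 and E2F4 have the neighbours farthest from 0 among the called genes, while CDK6 (low) and WEE1 (high) lie among neighbours with medians of 0.00 and 0.03.

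Genes that work with this core were counted in the same fit. Of 22 other CDK regulators and MuvB or MYB genes, 3 rose (13.6%) and 6 fell (27.3%), beside 17.8% and 18.4% of all genes tested, with a median of -0.06. CDKN1C (p57) rose by 0.68 (adjusted p = 0.0110, edgeR) from a low level of 1.39 CPM, beside a median of 0.26 for its neighbours. The MuvB subunit LIN52 rose by 0.28 (neighbours 0.37) and CDK7, the CDK-activating kinase, by 0.18 (neighbours -0.005). FBXW7, the ubiquitin ligase part that targets cyclin E, fell by 0.97 (adjusted p = 2.00e-05) in a region whose 32 other genes had a median of -0.88. FZR1, the G1 activator of the APC/C, fell by 0.67 (adjusted p = 0.000288), with a median of 0.01 around it. CDKN1A, which encodes p21, fell by 0.45 (adjusted p = 0.0198), from 328 ± 67.9 to 239 ± 11.5 CPM. FOXM1, a transcription factor of mitotic genes, fell by 0.38 (adjusted p = 0.00568), while MYBL2, which binds the MuvB complex, had -0.19 (adjusted p = 0.0744).

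Of 41 S phase genes, 4 rose and 8 fell, and of 51 G2/M genes, 5 rose and 10 fell, 29.3% and 29.4% called, beside the 36.2% of all genes tested. Their medians were -0.03 and -0.08. In S phase genes, the single-strand DNA binding subunit RPA2 (0.51), the GINS subunit GINS2 (0.37) and the replication fork gene TIPIN (0.23) rose most. The neighbours of GINS2 had a median of 0.34, and those of RPA2 and TIPIN 0.06 and -0.02. The centromere gene CENPU (-1.04) and the maintenance methylation factor UHRF1 (-0.57) fell most. MCM2, a helicase subunit that fell by 0.47, had neighbours with a median of -0.40. In G2/M genes, the spindle motor KIF11 (0.24), the spindle gene DLGAP5 (0.24) and TPX2 (0.20) rose most, next to neighbours with medians of 0.27, 0.25 and 0.28. The lamin B receptor LBR (-0.68), the condensin subunit SMC4 (-0.62) and the cytokinesis factor ECT2 (-0.55) fell most, and the neighbours of SMC4 and ECT2 on chromosome 3 had medians of -0.40 and -0.52. Among the cell cycle core itself, 7 genes were listed with a G1/S peak, CCNE1, CCNE2, CDC25A, E2F1, E2F2, E2F7 and E2F8. Of these, 3 were called (E2F1 higher, CCNE2 and E2F7 lower), and 1 of 8 listed with a G2/M peak (CCNA2 lower). Other called genes, RBL1 and FBXO5 among them, were on neither list, and another choice could change these counts. Summed TPM of the listed genes overlapped between the genotypes. For G1/S it was 488.5 to 537.8 in WT and 516.1 to 532.4 in ARID1A-KO samples, and for G2/M 1995 to 2260 and 1842 to 2199.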

How the data were processed

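RNA-seq of AID-DIvA cells (3 WT and 3 ARID1A-KO samples, no treatment) was used. Per the labels, libraries came from a stranded total RNA kit, while the molecule is given as polyA RNA. The authors aligned reads to GRCh37 with STAR and deposited raw gene counts made with featureCounts, together with TPM values that sum to 1000000 over autosomal genes. The gene identifiers carry the versions of an older GENCODE release than the one the methods name. Forward-strand counts were 5.83% to 6.15% of reverse-stranded counts, so reverse-stranded counts were used.

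Counts were filtered with filterByExpr, scaled by TMM and tested over all genes with edgeR 4.0.16's quasi-likelihood test (R 4.3.3, Benjamini-Hochberg adjustment, all 6 samples, no covariate). CPM are TMM-scaled. The common biological coefficient of variation was 0.111. The members and lists were chosen with earlier results of these data known. Values in every sample are given for called genes changed by at least 0.3 and for CCND2, CCNE1, RBL1 and RBL2. From each companion list, the 3 largest rises and falls are named, with CDKN1A, CDKN1C, FOXM1 and MYBL2. Neighbours are the other tested genes with a midpoint within 5 Mb. Promoter windows are from RefSeq GRCh38.p14, and gene coordinates are those of the deposited GRCh37 tables, and neither was converted.

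Alternatives were RLE scaling, DESeq2 1.42.0, other filters, unstranded counts, the replicate number as a block, offsets on length, GC content and neighbours, each sample left out and a threshold of 0.01. TPM sums were repeated with unstranded TPM and with CPM per kb. In simulated data, 199 of 19599 genes were changed, a far smaller share than the 36.2% called in the real comparison. With this setting, edgeR recovered 23 of 67 genes changed by 0.5 on the log2 scale, 62 of 69 by 1 and 63 of 63 by 2. It made 5 false calls. Recovery with as many changed genes as were called here was not simulated. Every pair of samples differed by more than counting noise (chi-square per gene of 7.57 to 128). Same-numbered samples deviated together in 2 of 3 numbers (correlations of -0.18, 0.27 and 0.18). Differently numbered samples had correlations from -0.42 to 0.30, a range that includes these values, so the numbers were not taken to pair samples.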

Additional observations from a re-analysis of the deposited data

How the results depend on the processing

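Of the 18 called genes, 16 kept their call whichever sample was left out, with CDK2 and RBL1 as exceptions. RBL1 also lost its call with the offsets on length (adjusted p = 0.0912) and GC content (0.115) and with the replicate block (0.0514), CDK2 without a filter (0.0597), and CDK2, CDKN1B and RBL1 at a threshold of 0.01 (edgeR). With the offset on GC content, CDK1 was called higher and CCNE1, CCNF and CDC25B lower. CDC25B also passed with RLE scaling and CCNE1 with the offset on length. All genes that rose or fell kept their direction under every alternative except E2F4 (-0.16 with the offset on neighbours). Called genes numbered 2 to 4 higher and 12 to 17 lower under the alternatives, except 5 higher without a filter, where E2F2 and CCNA1 passed. Without 1 sample, 3 to 4 were higher and 13 to 17 lower, the fourth being CCNA1, which passed the filter there only through its ARID1A-KO counts. Such p-values do not support a rise. With the replicate block they were 4 higher, with E2F2, and 15 lower, with CDC25B and without RBL1, and no paired design is given by the labels. Genes without a call changed sign in some fits: with the offset on neighbours, CCND2 to 0.038, CDK1 to -0.17, CDKN3 to -0.15, E2F3 to 0.12 and CDC25A to -0.0043. CDC25A was at -0.0046 with the offset on GC content, E2F5 at -0.0049 with unstranded counts, and CCND2 and CCND3 at 0.033 and 0.000407 with the offset on length. Without 1 sample, log2 fold changes ran from -0.057 to 0.0094 for E2F3, -0.026 to 0.11 for CDKN3, -0.011 to 0.093 for E2F6, -0.022 to 0.086 for E2F8, -0.089 to 0.020 for CCND3, -0.27 to 0.059 for CDKN2C, -0.094 to 0.054 for CCND2 and -0.10 to 0.000636 for CDK4.

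Of the companion lists, G2/M genes called higher numbered 3 with RLE scaling, 2 without a filter, 2 with the offset on neighbours and 0 at an adjusted p under 0.01 (edgeR). The other counts at 0.01 were 4 lower for G2/M genes, 2 higher and 5 lower for S phase genes, 0 higher and 3 lower for CDK regulators, and 2044 higher and 2370 lower over all genes. CDK regulators called higher numbered 1 with the offset on neighbours. Without 1 sample, G2/M genes were 0 to 3 higher and 3 to 13 lower, S phase genes 2 to 5 and 5 to 7, and CDK regulators 1 to 3 and 4 to 7. The 0 came without WT replicate 4, ARID1A-KO replicate 3 or ARID1A-KO replicate 5, and the 3 lower without ARID1A-KO replicate 4. The causes were not tested. When repeated with unstranded TPM and with CPM per kb, all summed TPM moved by less than the spread between replicates. That statement compares measures and not genotypes. A call that was missed does not show equal levels.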
